A study of Mus musculus with 12 samples.

Results

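The comparison described here is that of splenic CD4 T cells outside the T follicular helper (TFH) gate in mice with and without a T cell deletion of the transcription factor gene Ets1. Its members are 6 of the 12 RNA sequencing libraries of the series, 3 labelled Ets1-CD4-cKO (KO here) and 3 labelled WT, and the 9825 of 23233 named features that reached 1 FPKM in at least 3 of these 6 libraries. FPKM is the number of fragments mapped to a gene, divided by its transcript length and the library's depth. All mice were C57BL/6 and homozygous for a floxed Ets1 allele (Ets1 flox/flox), the WT controls included, and KO mice also carried CD4-cre. Non-TFH cells were sorted from spleen as CD4+ cells negative for CXCR5 and PD-1, and TFH cells as CD4+ cells positive for both. The labels give no age, sex, immunisation or number of mice, and leave unsaid whether each replicate was its own mouse. The p-values therefore set the difference between groups only against the spread of these libraries within a group, which may be technical. The Cre driver is active from the thymus onward, also in precursors of CD8 T cells, so the comparison is not one of acute loss.

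Ets1 is the founding member of the ETS family of transcription factors, which bind DNA motifs with a GGAA core. It is abundant in resting lymphocytes and falls after activation, and it is known in T cells for roles in thymic selection, in survival through the IL-7 receptor, in responses to the T cell receptor (TCR) and in helper and regulatory T cell function. Non-TFH CD4 T cells of the spleen are mostly resting naive cells, with memory and regulatory T cells among them.

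The 6 libraries were of similar estimated depth, 13.6 to 15.5 M fragments. Pearson's r on the log2 scale, across features within a pair of libraries, was 0.960 to 0.969 within a group and 0.886 to 0.895 between groups, and 63.1% of the variance lay on a principal component that separated the genotypes. In WT replicate 1 most X-linked and all Y-linked genes had no value, and 867 features had a value in every library but this one. KO replicate 1 stood apart in immediate early genes and WT replicate 3 in neutrophil genes, as given below beside those genes. The labelled cell type was carried by its markers: Cd4 stood at 233, 246 and 229 FPKM in WT and 289, 375 and 293 FPKM in KO libraries, Cd3e at 215, 228 and 199 FPKM in WT and 192, 208 and 218 FPKM in KO libraries, and the gate gene Pdcd1, which encodes PD-1, at 1.45, 1.32 and 1.48 FPKM in WT and 1.39, 1.25 and 1.29 FPKM in KO libraries. Cxcr5 was listed at 10.7, 0 and 11 FPKM in WT and 0, 3.89 and 0 FPKM in KO libraries. The tables list some genes at exactly 0 in single libraries, and whether such a 0 is a measurement is not shown by them.

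The level of Ets1 mRNA did not separate the genotypes. Ets1 (chr9:32636241-32757820, build GRCm38.p6) stood at 368, 367 and 362 FPKM in WT and 369, 364 and 338 FPKM in KO libraries, and the groups overlapped. The log2 change was -0.034 (p = 0.7, exact permutation test, two-sided), and 3 against 3 libraries cannot go below 0.1. The value covers the whole gene, of which a floxed deletion can leave much, and is no check of the deletion. KO therefore means the libraries so labelled throughout.

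The genotypes differed widely. Of the 9825 features tested with limma, 3577 were called at an adjusted p below 0.05, which is 36.4%. In KO libraries 1893 (19.3%) rose and 1684 (17.1%) fell. Without scaling between libraries, which shifts the median log2 change to 0.084, the split was 2378 up and 1325 down. Calls of at least 2-fold numbered 893 (9.09%), of which 535 (5.45%) were up and 358 (3.64%) down. Calls of at least 4-fold numbered 140 up (1.42%) and 93 down (0.947%). The groups did not overlap in 53.1% of features. Of the tested features 292 reached 1 FPKM in no WT library and so passed the filter through KO libraries alone, and 280 of these were called higher. Another 146 passed through WT libraries alone. Features that passed through KO libraries alone could hardly be called lower, and those that passed through WT libraries alone hardly higher. The counts and medians of lists that hold such members include them. The counts of every list below are to be read against the 19.3% and 17.1% of all features. The median log2 change of all features was 0.0081, with quartiles at -0.24 and 0.27. When limma was fitted to all 12 libraries of the series, which share 1 spread per gene, 2235 of 11012 features were called (20.3%), 1296 up (11.8%) and 939 down (8.53%).

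**Figure D1:**
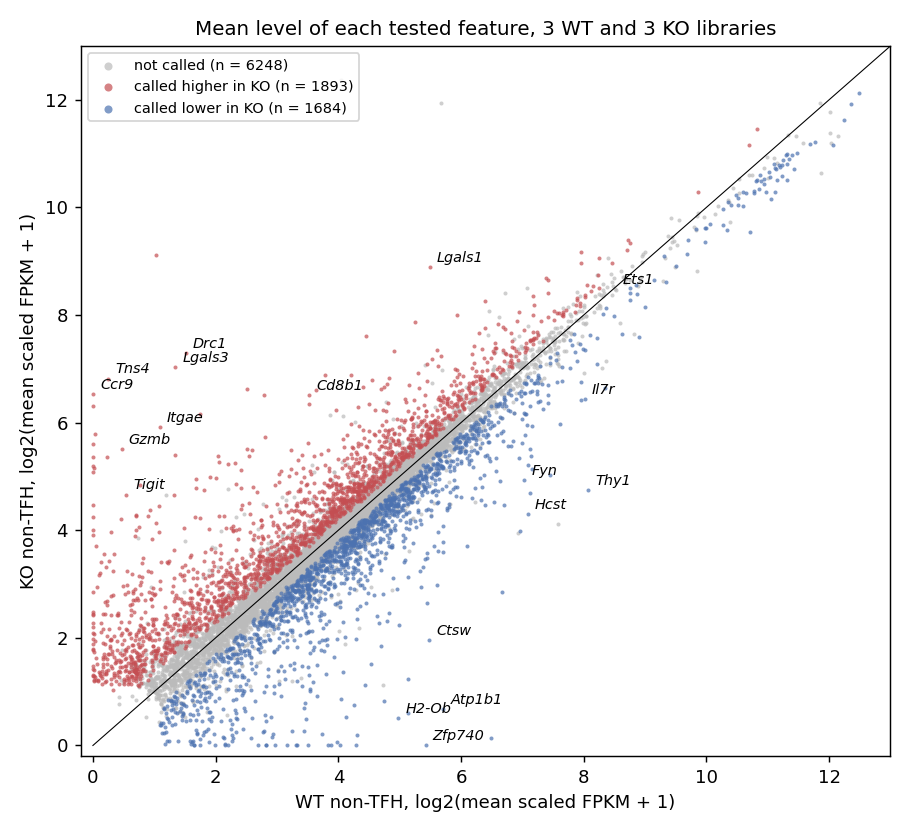
Mean level of each tested feature in the 3 WT libraries (horizontal axis) and the 3 KO libraries (vertical axis), both as log2(mean scaled FPKM + 1). Red points are the 1893 features called higher and blue points the 1684 called lower in KO, grey points were not called, and the diagonal marks equal levels. Tns4, Lgals3 and Ccr9 lie far above the diagonal, Zfp740, H2-Ob and Thy1 far below it, and Ets1 lies on it.

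Rises were ranked among called genes with a name of their own, values in all 6 libraries, groups that did not overlap, no group listed at 0 throughout and a group mean of at least 10 FPKM. The largest rises within these limits, of Tns4, Drc1, Sult5a1 (given below) and Lgals3, were of genes at low levels in WT libraries. Tns4 (chr11:99065678-99089306), a tensin that links integrins to the cytoskeleton, stood at 0.298, 0.121 and 0.142 FPKM in WT and 118, 108 and 110.0 FPKM in KO libraries (log2 change 6.57 ± 0.081 SE, adjusted p = 4.39e-07). Drc1, a subunit of the dynein regulatory complex of cilia, stood at 1.37, 2.28 and 1.9 FPKM in WT and 149, 181 and 137 FPKM in KO libraries (log2 change 5.78 ± 0.15 SE, adjusted p = 6.25e-06). Lgals3 (chr14:47373860-47386167), the lectin galectin-3, stood at 1.44, 1.43 and 1.73 FPKM in WT and 150.4, 136 and 102 FPKM in KO libraries (log2 change 5.67 ± 0.15 SE, adjusted p = 6.01e-06). For each of these genes the lowest KO library lay far above the highest WT library.

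The other rises among the 12 largest within these limits were of varied kind. Gzmb (chr14:56258836-56262334), the serine protease granzyme B of cytotoxic granules, stood at 0.432, 0.242 and 0.475 FPKM in WT and 48.5, 46.9 and 38 FPKM in KO libraries (5.04 ± 0.12 log2). Itgae (chr11:73090505-73147449), the integrin CD103 that binds E-cadherin, stood at 1.67, 0.966 and 0.735 FPKM in WT and 56.8, 69.3 and 51.2 FPKM in KO libraries (4.84 ± 0.19 log2). Tigit, an inhibitory receptor, stood at 0.616, 0.389 and 0.339 FPKM in WT and 21.4, 24.2 and 27.4 FPKM in KO libraries (4.13 ± 0.12 log2). Anxa2, a membrane-binding annexin, stood at 3.88, 4.77 and 5.47 FPKM in WT and 95.4, 107 and 88.8 FPKM in KO libraries (4.11 ± 0.12 log2). Genes better known outside T cells were also among them. Crhbp, a binding protein of corticotropin-releasing hormone, rose from 0.0393, 0 and 0 to 37.9, 34 and 31.5 FPKM, Cldn10, a claudin of tight junctions, rose from 1.89, 2.39 and 2.78 to 68.2, 59.7 and 84.5 FPKM, and Sult5a1, a sulfotransferase family member, rose from 0, 0 and 0.0671 to 68.1, 58.3 and 37.4 FPKM. Cdhr3, a cadherin-related protein, varied most among KO libraries, with 0.168, 0.297 and 0.0695 FPKM in WT and 23.6, 59.5 and 37 FPKM in KO libraries. Nab2, a corepressor of EGR factors, stood at 0, 0 and 17.9 FPKM in WT and 50.1, 49.6 and 57.6 FPKM in KO libraries, and its call (4.32 ± 1.21 log2, adjusted p = 0.041) was lost without any 1 of 5 libraries (all but WT replicate 3), with a replicate block and with a pseudocount of 0.1, over a range of adjusted p from 2.79e-05 to 0.115.

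The falls were ranked within the same limits, which leave out steeper ones. The uncharacterised transcript A630023P12Rik, named after its values were seen, fell from 70.00, 148 and 48.4 to 0, 0.142 and 0.143 FPKM (-6.21 ± 0.39 log2). Atp1b1 (chr1:164437099-164458355), the beta 1 subunit of the sodium-potassium pump, stood at 50.5, 59.5 and 44 FPKM in WT and 0.56, 0.487 and 0.735 FPKM in KO libraries (log2 change -5.03 ± 0.13 SE, adjusted p = 5.47e-06). H2-Ob, a chain of the regulator of peptide loading on MHC class II, stood at 31.5, 28.7 and 31.4 FPKM in WT and 0.26, 0.546 and 0.452 FPKM in KO libraries (log2 change -4.48 ± 0.10 SE, adjusted p = 4.14e-06). Thy1 (chr9:44043384-44048579), the T cell surface protein CD90, stood at 268, 265 and 269 FPKM in WT and 25.8, 27.8 and 24 FPKM in KO libraries (log2 change -3.32 ± 0.067 SE, adjusted p = 2.64e-06), so that a 10.3-fold difference between group means left a clear level in KO cells. Ctsw, the lymphocyte protease cathepsin W, stood at 49.6, 40.6 and 41.1 FPKM in WT and 2.46, 2.04 and 4.17 FPKM in KO libraries (-3.56 ± 0.21 log2), and Klrd1, the CD94 chain of NK receptors, at 20.7, 21.3 and 24.1 FPKM in WT and 2.02, 2.46 and 1.1 FPKM in KO libraries (-3.04 ± 0.19 log2).

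The remaining 7 of the 12 largest falls had WT means of 12.3 to 20.7 FPKM and KO means of 0.0391 to 1.19 FPKM. They were Igsf23, an immunoglobulin superfamily member, Lypd6b, a Ly6 family protein, Hs3st3b1, a heparan sulfate sulfotransferase, Hid1, a protein of the Golgi apparatus, Ppm1j, a protein phosphatase, Rab11fip4, an effector of Rab11, and Bambi-ps1, a pseudogene whose reads could be shared with its parent gene. Their log2 changes ran from -4.11 for Igsf23 to -3.19 for Rab11fip4. All 12 falls kept their call in each alternative that was run, and so did all of the 12 rises other than Nab2.

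**Figure D2:**
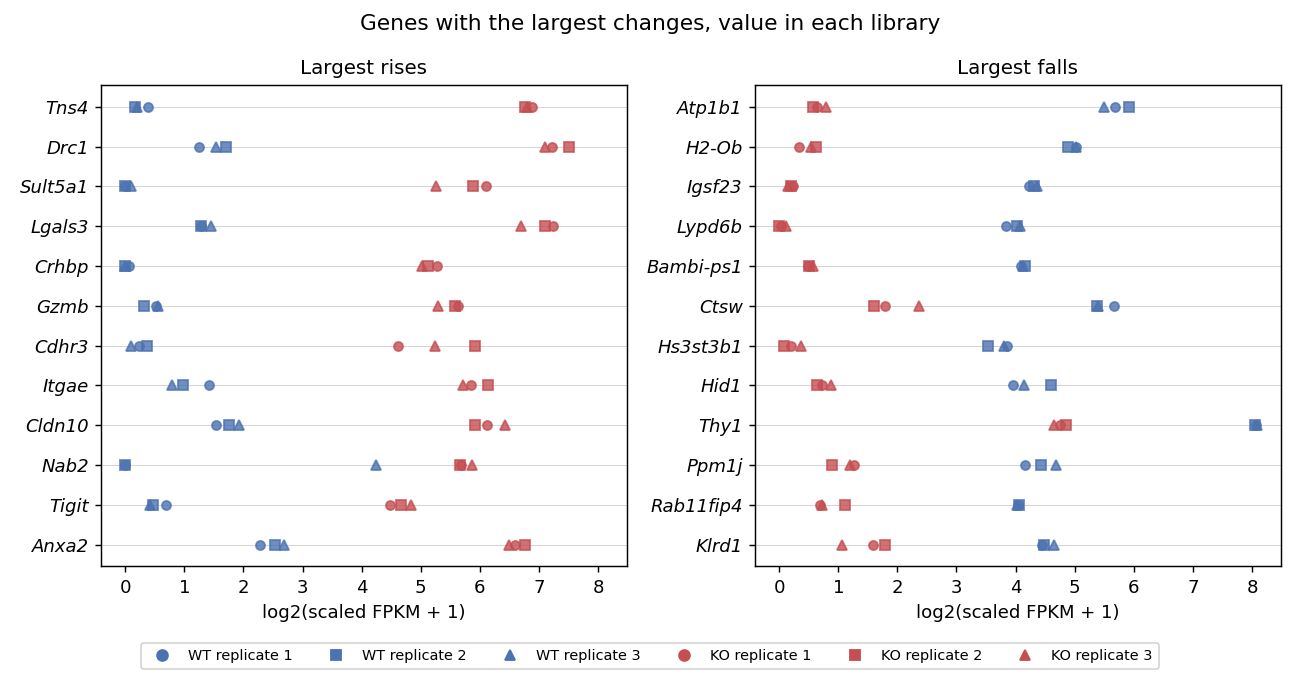
Value of each of the 12 largest rises (left) and falls (right) in every library, as log2(scaled FPKM + 1). Blue symbols are WT and red symbols KO libraries, and the symbol's shape gives the replicate. WT and KO symbols stand apart for each gene, with the WT replicates of Nab2 split between 0 and 17.9 FPKM.

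A further 9 features were listed at 0 in all WT libraries and at 5 FPKM or more in all KO libraries, and 11 the other way round. Ccr9 (chr9:123767211-123783457), the receptor of the gut and thymus chemokine CCL25, was listed at 0 in each WT library and at 92.8, 86.3 and 95.5 FPKM in the KO libraries. Tmem243 was at 84.0, 78.0 and 72.6 FPKM, Amigo2, an adhesion molecule, at 45.4, 52.5 and 44.9 FPKM, and Grhl3, an epithelial transcription factor, at 38.1, 40.5 and 41.5 FPKM in KO libraries. In the other direction, Zfp740, a zinc finger protein, was listed at 40.4, 42.1 and 43.1 FPKM in WT and at 0 in each KO library. Slc48a1, a heme transporter, Jmjd8 and Gss, which encodes glutathione synthetase, had WT means of 18.6, 15.3 and 8.93 FPKM. Folds are left out for these genes.

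Promoter sequences are shown for 4 called genes of T cell function whose 250 bases before the start site in the RefSeq promoter table hold the ETS-type motif CAGGAAGT on either strand, 3 that fell and 1 that rose. Hcst encodes DAP10, an adaptor of activating receptors, and fell from 131, 134 and 140.0 to 20.1, 18.6 and 17.2 FPKM. Prf1 encodes the pore-forming perforin and fell from 10.9, 10.3 and 10.6 to 1.04, 1.43 and 0.771 FPKM, Il7r fell from 244, 272 and 256 to 84.8, 73.5 and 97.7 FPKM, and Cd247 rose from 240.4, 258 and 241 to 593, 567 and 558 FPKM. Hcst and Prf1 were chosen after their values were seen. The sequences are from RefSeq (GRCm38.p6), 5′ to 3′ on the gene's strand, and capitals mark the motif, which reads ACTTCCTG where it lies on the other strand. In order, the windows are chr7:30419855-30420104 (minus strand), chr10:61297586-61297835 (plus strand), chr15:9529877-9530126 (minus strand) and chr1:165788431-165788680 (plus strand). The gene's full RefSeq span begins before that start site for Prf1, Il7r and Cd247. The end of the windows of Prf1 and Il7r and the whole window of Cd247 therefore lie within the span, as do the motifs of Il7r and Cd247.
Hcst: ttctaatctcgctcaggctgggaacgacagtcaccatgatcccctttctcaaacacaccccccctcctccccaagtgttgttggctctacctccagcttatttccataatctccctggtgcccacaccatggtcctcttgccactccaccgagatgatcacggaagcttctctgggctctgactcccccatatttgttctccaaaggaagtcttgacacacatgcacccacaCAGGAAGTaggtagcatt
Prf1: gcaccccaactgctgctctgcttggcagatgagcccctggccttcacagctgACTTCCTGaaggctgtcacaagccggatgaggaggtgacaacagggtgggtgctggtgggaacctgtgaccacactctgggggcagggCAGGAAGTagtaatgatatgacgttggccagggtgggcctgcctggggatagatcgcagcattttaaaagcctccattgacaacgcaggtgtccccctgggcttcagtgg
Il7r: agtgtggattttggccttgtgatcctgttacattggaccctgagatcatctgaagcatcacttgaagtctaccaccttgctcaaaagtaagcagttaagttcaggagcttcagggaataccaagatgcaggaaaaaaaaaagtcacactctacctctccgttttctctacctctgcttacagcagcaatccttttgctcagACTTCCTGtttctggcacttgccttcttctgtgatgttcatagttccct
Cd247: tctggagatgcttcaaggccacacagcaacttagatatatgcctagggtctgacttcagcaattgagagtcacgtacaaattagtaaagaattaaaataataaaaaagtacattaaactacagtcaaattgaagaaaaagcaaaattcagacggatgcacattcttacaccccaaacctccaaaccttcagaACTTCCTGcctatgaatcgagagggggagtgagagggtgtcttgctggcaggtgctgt

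The motif CAGGAAGT stood in 2.69% of the 32851 promoter windows of this length in the RefSeq table and in 3% of the 9577 windows of tested genes. Of windows of genes called higher 2.54% held it, and of genes called lower 4.01%. Among genes that fell at least 4-fold it was in 9 of 94 windows (9.57%), and among those that rose at least 4-fold in 4 of 139 (2.88%). The motif CCGGAAGT, also of ETS type, was in 6.54% of tested windows and in 7.93% of those of genes not called. It was in 3.94% of windows of genes called higher and 4.55% of those called lower, and in 1 and 0 of the windows of genes that rose and fell at least 4-fold. The motifs differ at the second base and share GGAAGT, so no stretch matches both at once. A match here is a run of letters, counted without a test.

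Members of the ETS family were not uniform. Besides Ets1 and Gabpb1, the partner of Gabpa that has no ETS domain, 13 members were tested. Of these 7 rose, 2 fell and 4 were not called, against 19.3% of all features that rose and 17.1% that fell. Their median log2 change was 0.32. Of the rises 2, those of Etv5 and Spi1, were of members that passed the filter through KO libraries alone. Etv5, an ETS activator, rose from 0.719, 0.789 and 0.633 to 5.87, 5.9 and 6.21 FPKM (log2 change 2.03 ± 0.084 SE, adjusted p = 2.99e-05), Ets2, the closest relative of Ets1, rose from 13.5, 16.1 and 13.8 to 31.9, 28.4 and 32.8 FPKM (1.05 ± 0.092 log2), and Elf1, a lymphocyte ETS factor, rose from 88.6, 104 and 79 to 164, 161 and 154 FPKM (0.82 ± 0.11 log2). Spi1, which encodes the myeloid and B cell factor PU.1, rose from 0.361, 0.624 and 0.68 to 1.97, 2.51 and 1.6 FPKM. Fli1, which lies next to Ets1, rose from 26.9, 25.4 and 25.7 to 32, 30.8 and 30.6 FPKM (0.25 ± 0.054 log2), a call lost when all 12 libraries were fitted. The rises of Elf4 and Etv6 were also lost with all 12 libraries and with a replicate block. That of Elf4 was lost in 7 of 15 alternatives. The 2 that fell, Elk3 and Etv3, were named after their values were seen. They moved by -0.32 and -0.27 log2, and both calls were lost with all 12 libraries, that of Etv3 also without WT replicate 1, without WT replicate 2 and with a replicate block.

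Genes of the T cell receptor pathway moved in both directions. Of 35 tested members 9 rose and 13 fell, against 19.3% and 17.1% of all features. The median log2 change of the list was -0.037, and 4 rose with all 12 libraries. At the receptor, Cd247, the zeta chain, stood at 240.4, 258 and 241 FPKM in WT and 593, 567 and 558 FPKM in KO libraries (log2 change 1.21 ± 0.057 SE, adjusted p = 4.07e-05), and Cd3g at 417, 406 and 443 FPKM in WT and 710.2, 601 and 693 FPKM in KO libraries (0.66 ± 0.082 log2). Cd3e stayed at -0.055 ± 0.078 log2 and was not called. Among the proximal kinases Fyn fell from 121, 138 and 130.3 to 25.7, 30.3 and 32.6 FPKM (log2 change -2.11 ± 0.10 SE, adjusted p = 4.73e-05), and Lck, measured jointly with an overlapping microRNA, fell from 431, 438 and 429 to 346, 335 and 335 FPKM (-0.35 ± 0.047 log2). Zap70 stood at 124, 111 and 134 FPKM in WT and 108, 99.2 and 101 FPKM in KO libraries (adjusted p = 0.0565) and was not called. Lck and Zap70 were named after their values were seen.

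Further down the pathway, Plcg1, the phospholipase that releases calcium signals, fell from 99.9, 90.7 and 91.5 to 34.5, 49.1 and 35.4 FPKM (-1.24 ± 0.14 log2), and Nfatc2, a calcium-responsive transcription factor, fell from 14.3, 14.3 and 14.5 to 5.25, 5.24 and 5.14 FPKM (-1.30 ± 0.056 log2). The ubiquitin ligase Cbl, an inhibitor of the pathway, also fell, from 49.6, 52.9 and 48.8 to 24.3, 25.5 and 28.3 FPKM (-0.93 ± 0.074 log2). Rasgrp1, which activates Ras, rose from 111, 94.7 and 98.6 to 203, 208 and 244 FPKM (1.09 ± 0.099 log2). Of 16 T cell identity genes 5 rose (3 with all 12 libraries) and 4 fell. Cd5, an inhibitory receptor set by TCR signal strength, fell from 254, 241 and 246 to 106, 109 and 104 FPKM (log2 change -1.21 ± 0.051 SE, adjusted p = 3.02e-05), while Cd2, an adhesion receptor, rose from 257, 250.1 and 235 to 508, 539 and 441 FPKM (1.0 ± 0.088 log2). Cd4 rose by 0.42 ± 0.11 log2 (adjusted p = 0.0292), a call lost without any 1 of the 3 WT libraries, with quantile normalization and with all 12 libraries.

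Genes of naive T cells split. Of 25 tested members of the naive and quiescence list 9 rose (5 with all 12 libraries) and 6 fell, with a median log2 change of 0.092. Of the members 1 passed the filter through KO and 1 through WT libraries alone, which leaves 8 rises and 5 falls among 23. Il7r (chr15:9506159-9529941), the receptor chain for the survival cytokine IL-7, stood at 244, 272 and 256 FPKM in WT and 84.8, 73.5 and 97.7 FPKM in KO libraries (log2 change -1.59 ± 0.11 SE, adjusted p = 0.000167), the steepest fall in this list among features with a symbol of their own. The joint feature of Cd55 and Cd55b, complement regulators, fell from 37.2, 27.6 and 37.7 to 0.604, 0.383 and 0.547 FPKM (-4.53 ± 0.14 log2). Tcf7, a factor of naive and memory T cells, was at -0.25 ± 0.094 log2 and not called. In the same list Klf2, which drives S1pr1 and quiescence, rose from 101, 84.5 and 104 to 318, 191 and 171 FPKM (1.18 ± 0.24 log2), Tob1, an antiproliferative factor, rose from 12.3, 13.1 and 11.1 to 48.5, 35.9 and 40.9 FPKM, and Dapl1 rose from 178, 162 and 159 to 388, 498 and 349.5 FPKM. Klf2 was not called with all 12 libraries.

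Activation and memory genes mostly rose, in 20 of 30 tested members, and 2 fell. Their median log2 change was 0.65 against 0.0081 over all features. Lgals1, the lectin galectin-1, stood at 40.2, 41.4 and 50.2 FPKM in WT and 476, 497 and 446 FPKM in KO libraries (log2 change 3.40 ± 0.099 SE, adjusted p = 9.12e-06), Tnfrsf9, the costimulatory receptor 4-1BB, at 3.7, 2.77 and 3.03 FPKM in WT and 37.5, 39.9 and 35.3 FPKM in KO libraries (log2 change 3.22 ± 0.10 SE, adjusted p = 1.11e-05), and S100a6, a calcium-binding protein, at 1.83, 3.12 and 6.91 FPKM in WT and 39.4, 40.5 and 31.6 FPKM in KO libraries (3.07 ± 0.37 log2). Nkg7, a granule protein, rose from 3.08, 4.97 and 4.98 to 31.8, 36.5 and 32.6 FPKM (2.72 ± 0.16 log2). The usual surface marker of memory cells went the other way: Cd44 fell from 7.53, 8.09 and 7.83 to 3.87, 5.13 and 4 FPKM (-0.73 ± 0.11 log2) and was chosen after its values were seen. The IL-2 receptor chain Il2ra, at 7.85, 11.7 and 7.86 FPKM in WT and 8.31, 6.63 and 6.08 FPKM in KO libraries, was not called.

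Receptors for homing changed in 13 of 19 tested members, 11 up and 2 down, against 19.3% and 17.1% of all features. Of the rises 4 passed the filter through KO libraries alone, which leaves 7 rises and 2 falls among 15. Besides Ccr9, Ccr8, a receptor of type 2 and regulatory T cells, rose from 1.46, 0.371 and 0.876 to 20.7, 18 and 20.5 FPKM (log2 change 3.48 ± 0.21 SE, adjusted p = 9.85e-05), Gpr15, a receptor for homing to the colon, rose from 0.161, 0.271 and 0.236 to 4.44, 4.06 and 4.67 FPKM (2.14 ± 0.096 log2), and Ccr4, a skin homing receptor, rose from 1.35, 0.935 and 1.09 to 5.99, 6.92 and 6.6 FPKM (1.82 ± 0.11 log2). Ccr7, which holds naive cells in the T zone, stood at 188, 187 and 193 FPKM in WT and 226, 227 and 192 FPKM in KO libraries and was not called. Cxcr4 rose from 29, 31.3 and 18.8 to 81, 39.7 and 99.5 FPKM (1.38 ± 0.38 log2), with KO replicate 2 near the WT libraries. Its call was lost without any 1 of 5 libraries (all but KO replicate 2) and with a replicate block.

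Integrin chains moved in both directions. Of 13 tested chains 6 rose and 4 fell, against 19.3% and 17.1% of all features. Of the rises 1 passed the filter through KO libraries alone. Of the falls 1, that of Itga5, passed it through WT libraries alone, which leaves 5 rises and 3 falls among 11. Itgae had the largest rise, and its partner Itgb7 rose from 300.2, 303 and 302 to 526, 506 and 555 FPKM (0.81 ± 0.055 log2). Itgb1, the partner of many alpha chains, rose from 11.6, 13.6 and 12.5 to 26.1, 32.6 and 25.9 FPKM (1.10 ± 0.11 log2). Itga4, of VLA-4, fell from 69.7, 73.4 and 72.1 to 24.6, 20.4 and 24.8 FPKM (log2 change -1.59 ± 0.087 SE, adjusted p = 6.6e-05), Itga6, of a laminin receptor, fell from 34.5, 36 and 34.7 to 16.9, 15.3 and 17.3 FPKM (-1.04 ± 0.065 log2), and Itga5, of the fibronectin receptor, fell from 2.5, 2.31 and 3.07 to 0.545, 0.902 and 0.401 FPKM (-1.17 ± 0.15 log2). Itgb7 was chosen after its values were seen.

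Of 30 tested actin and adhesion genes 8 rose, 1 of them a member that passed the filter through KO libraries alone, and 10 fell. Of them 6 fell without WT replicate 1, 5 with a replicate block, 5 without scaling and 4 with all 12 libraries. Gmfg, an actin-debranching factor of blood cells, stood at 136, 137 and 141 FPKM in WT and 26.2, 26 and 22.1 FPKM in KO libraries (log2 change -2.43 ± 0.079 SE, adjusted p = 1.32e-05). Coro2a, a coronin, fell from 7.83, 8.64 and 6.72 to 1.54, 1.05 and 1.48 FPKM (-1.89 ± 0.13 log2), and Tln1, which encodes talin that activates integrins, fell from 128, 129 and 133 to 65.5, 71.5 and 77.5 FPKM (-0.86 ± 0.074 log2). Tns1, another tensin, rose from 1.46, 1.34 and 1.14 to 3.6, 4.46 and 4.42 FPKM (1.16 ± 0.11 log2). These kept their calls in each of those settings. Actb, the major actin, stood at 1327, 1790.0 and 1309 FPKM in WT and 1166, 1188 and 1331 FPKM in KO libraries and was not called.

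**Figure D3:**
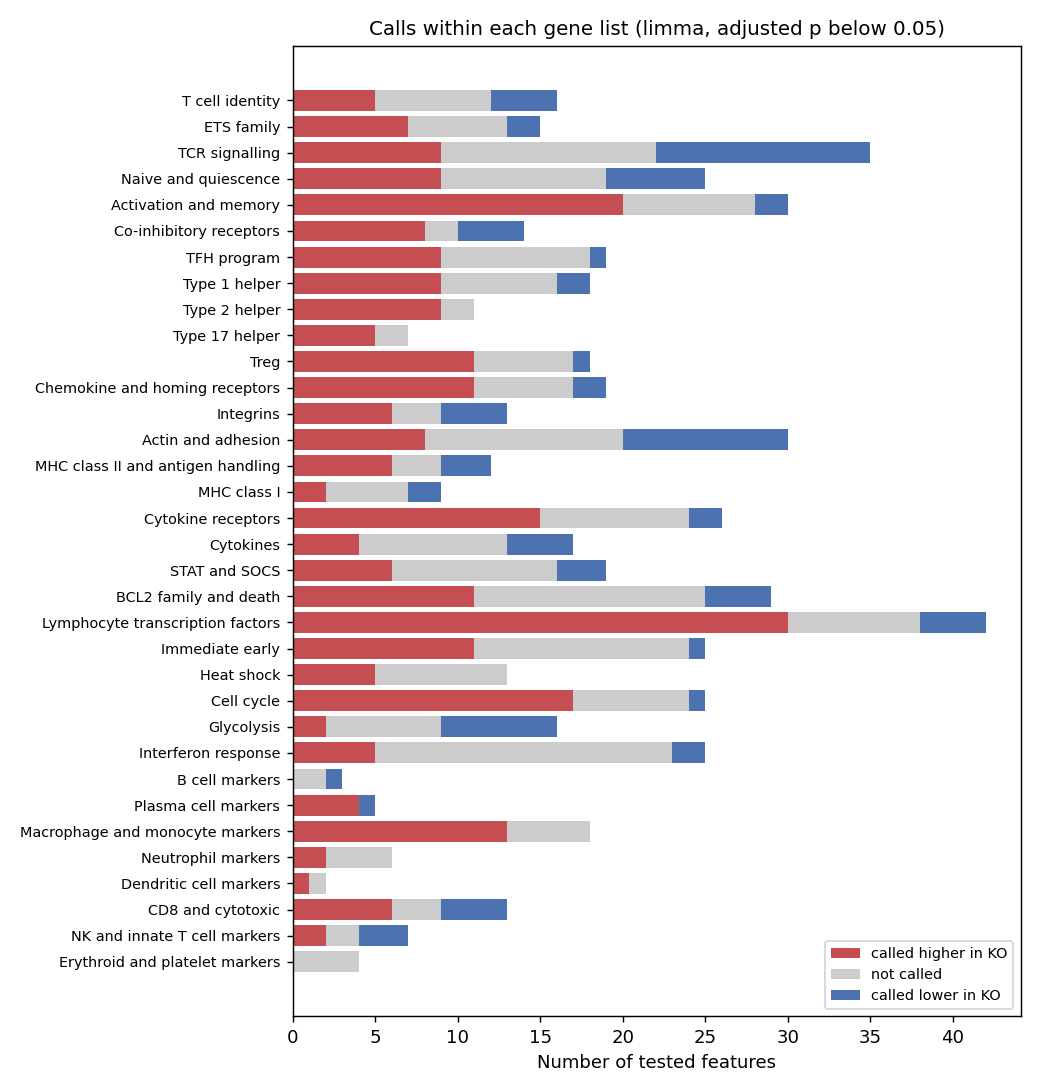
Number of tested features of each gene list that were called higher (red), not called (grey) or called lower (blue) in KO non-TFH cells, from limma at an adjusted p below 0.05. The lymphocyte transcription factor, activation and cell cycle lists hold mostly red, the TCR signalling, actin and glycolysis lists hold much blue.

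Receptors of cytokines rose in 15 and fell in 2 of 26 tested members (4 fell with quantile normalization and 1 with all 12 libraries), with a median log2 change of 0.68. Of the rises 2 passed the filter through KO libraries alone, which leaves 13 rises and 2 falls among 24. Il2rb, the beta chain through which IL-2 and IL-15 signal, stood at 25.9, 27.9 and 26.9 FPKM in WT and 82.2, 79 and 82 FPKM in KO libraries (log2 change 1.56 ± 0.055 SE, adjusted p = 1.78e-05). Il18r1, a chain of the IL-18 receptor, rose from 19.9, 18.6 and 18.9 to 55.2, 56.3 and 70.1 FPKM (1.60 ± 0.10 log2), and Tgfbr1, a chain of the receptor of TGF-beta, rose from 10.2, 9.79 and 8.49 to 26.3, 32.3 and 28.2 FPKM (1.51 ± 0.10 log2). Il17rb was listed at 0 in each WT library and at 4.24, 4.63 and 2.68 FPKM in KO libraries. Il7r was the main exception in direction. Downstream, 6 of 19 STAT, JAK and SOCS genes rose and 3 fell. Socs1, a feedback inhibitor of JAK kinases, rose from 7.37, 7.36 and 6.93 to 37.3, 29.5 and 29.5 FPKM (log2 change 2.0 ± 0.10 SE, adjusted p = 5.48e-05). Jak3, measured jointly with Insl3, fell from 68.6, 63.8 and 46.5 to 22.2, 22.7 and 26.4 FPKM (-1.28 ± 0.16 log2).

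Of 29 tested genes of the BCL2 family and cell death, 11 rose (7 with all 12 libraries) and 4 fell (2 without scaling, with a replicate block and with all 12 libraries). Of the rises 2 passed the filter through KO libraries alone, which leaves 9 rises and 4 falls among 27. Bcl2, which protects resting T cells, rose from 34.7, 33.5 and 34.1 to 73, 70.2 and 75.7 FPKM (log2 change 1.07 ± 0.054 SE, adjusted p = 4.96e-05), and Bcl2l1, which encodes Bcl-xL, rose from 4.71, 5.21 and 4.72 to 16.8, 19.9 and 19.2 FPKM (1.74 ± 0.085 log2). The pro-death genes Pmaip1 (Noxa) and Bmf rose too, by 1.77 ± 0.21 and 1.10 ± 0.19 log2. Bcl2a1b fell from 11.3, 13 and 13.1 to 3.52, 4.55 and 2.61 FPKM (-1.58 ± 0.17 log2) and belongs to a family of near-identical copies, so its reads may be shared among them. The guanosine triphosphatases Gimap3 and Gimap4 were not called.

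Of 17 tested cytokine transcripts 4 rose (2 with a replicate block) and 4 fell, shares near the 19.3% and 17.1% of all features. Of the rises 3, Il10 and Il4 among them, passed the filter through KO libraries alone, which leaves 1 rise and 4 falls among 14. Ltb, lymphotoxin beta, which shapes lymphoid tissue, fell from 296, 293 and 382 to 107, 92.9 and 97.8 FPKM (log2 change -1.69 ± 0.12 SE, adjusted p = 0.00017), and Tnf fell from 11.7, 11.8 and 12.9 to 8.12, 7.08 and 5.79 FPKM (-0.72 ± 0.12 log2). Il10, an inhibitory cytokine, rose from 0.158, 0.267 and 0 to 7.96, 6.09 and 1.92 FPKM (2.33 ± 0.42 log2), and Il4, of type 2 cells, rose from 0, 0.3 and 0.513 to 1.53, 2.91 and 1.92 FPKM (1.29 ± 0.22 log2). The rises of the chemokines Ccl3 and Ccl4 were lost with a replicate block, and that of Ccl3 also without KO replicate 1, KO replicate 2, WT replicate 1 or WT replicate 2. Ifng was below the filter in these 6 libraries.

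Lists of helper T cell programs held members that passed the filter through KO libraries alone and could hardly be called lower. Of 11 tested type 2 genes 9 rose (1 other fell without WT replicate 3), 5 of them members of this kind, which leaves 4 rises among 6. Il1rl1, the IL-33 receptor ST2, rose from 0.223, 0.104 and 0.0374 to 2.83, 4.99 and 2.71 FPKM (1.98 ± 0.21 log2), Nfil3, a transcription factor, rose from 0.357, 0.621 and 0.856 to 6.96, 6.18 and 6.27 FPKM (2.22 ± 0.14 log2), while Stat6 was not called (-0.15 ± 0.099 log2). Of 18 type 1 genes 9 rose and 2 fell, and 2 of the rises were of this kind. Eomes, a T-box factor of effector cells, stood at 1.05, 0.78 and 1.03 FPKM in WT and 12.3, 15.6 and 11.7 FPKM in KO libraries (log2 change 2.86 ± 0.13 SE, adjusted p = 3.75e-05), whereas Stat4, which transmits IL-12, fell from 36.8, 39.5 and 35.6 to 27.4, 27.7 and 26.4 FPKM (-0.44 ± 0.061 log2). Of 7 type 17 genes 5 rose, 2 of this kind, among them Rora, from 1.26, 1.05 and 1.11 to 7.82, 7.15 and 7.04 FPKM (1.96 ± 0.086 log2), Ahr, from 0.706, 0.793 and 0.529 to 3.21, 3.93 and 3.12 FPKM, and Ccr6, from 0.511, 0.541 and 0.752 to 3.59, 2.03 and 2.97 FPKM.

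Of 18 tested Treg genes 11 rose and 1 fell, 3 of the rises being of members that passed the filter through KO libraries alone, and the lineage factor itself was not called. Foxp3, measured jointly with the noncoding gene Ppp1r3fos, stood at 12.8, 12.9 and 10.5 FPKM in WT and 11, 12.5 and 11.2 FPKM in KO libraries (-0.053 ± 0.099 log2), and the groups overlapped. Klrg1, a receptor of effector cells, stood at 0.0501, 0.203 and 0.221 FPKM in WT and 6.86, 13.2 and 6.76 FPKM in KO libraries (log2 change 3.04 ± 0.25 SE, adjusted p = 0.000313), and Ikzf2, which encodes Helios, at 2.88, 2.89 and 2.85 FPKM in WT and 8.38, 11.1 and 9.29 FPKM in KO libraries (log2 change 1.44 ± 0.11 SE, adjusted p = 0.000206). Ctla4 stood at 13.4, 12 and 7.9 FPKM in WT and 40.7, 25.2 and 18.9 FPKM in KO libraries (1.24 ± 0.31 log2), a call lost without KO replicate 2, WT replicate 2 or WT replicate 3 (adjusted p up to 0.0689).

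Of 19 tested genes of the TFH program 9 rose and 1 fell, against 19.3% and 17.1% of all features. Of the rises 3, Tox2 and Rgs16 among them, passed the filter through KO libraries alone, which leaves 6 rises and 1 fall among 16. Tox2 rose from 0.197, 0.319 and 0.0868 to 3.44, 4.02 and 3.06 FPKM (log2 change 1.91 ± 0.13 SE, adjusted p = 0.000142), Rgs16, a regulator of receptor signalling, from 0.435, 0.356 and 0.329 to 4.79, 2.47 and 2.15 FPKM (1.54 ± 0.24 log2), and Batf, an AP-1 family factor, from 21.6, 25.1 and 26 to 51, 69.5 and 49.1 FPKM (1.18 ± 0.15 log2). Slamf6, an adhesion receptor of T and B cells, rose from 79.3, 68.5 and 67 to 146, 168 and 148 FPKM (1.10 ± 0.093 log2). Bcl6, the factor that defines TFH cells, chosen after its values were seen, rose from 5.89, 5.88 and 4.98 to 9.11, 8.42 and 9.26 FPKM (0.59 ± 0.086 log2). The 1 fall, of Irf4, was lost without 5 of the 6 libraries in turn (all but KO replicate 2), without scaling, with a replicate block and with all 12 libraries. The gate genes Cxcr5 and Pdcd1 were not called.

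Of 14 tested co-inhibitory genes 8 rose and 4 fell, the falls numbering 2 without WT replicate 1, WT replicate 2, KO replicate 2 or KO replicate 3 and with all 12 libraries. Of these genes 2 passed the filter through KO libraries alone and 2 through WT libraries alone, which leaves 6 rises and 2 falls among 10. Of all features 19.3% rose and 17.1% fell. Nt5e, the ectoenzyme CD73 that makes adenosine, stood at 11.3, 11.7 and 11.4 FPKM in WT and 99.4, 94.6 and 95 FPKM in KO libraries (log2 change 2.97 ± 0.052 SE, adjusted p = 1.66e-06). Lag3, a receptor for MHC class II, rose from 1.29, 0.813 and 0.993 to 3.38, 2.9 and 3.48 FPKM (1.07 ± 0.12 log2). Lair1, a collagen receptor, fell from 2.28, 2.11 and 2.27 to 0.541, 0.268 and 0.33 FPKM (-1.23 ± 0.11 log2), and Btla was not called (-0.31 ± 0.22 log2).

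Lymphocyte transcription factors rose in 30 of 42 tested members, fell in 4, and had a median log2 change of 0.58. Of the rises 5 were of members that passed the filter through KO libraries alone, which leaves 25 rises and 4 falls among 37. The nuclear receptor Nr4a1, induced by TCR signals, stood at 18.3, 16.6 and 17.5 FPKM in WT and 204, 70.9 and 75.2 FPKM in KO libraries (log2 change 2.49 ± 0.41 SE, adjusted p = 0.0063), with KO replicate 1 far above the other KO libraries. Egr1, also induced by TCR signals, stood at 22.6, 22.2 and 20.4 FPKM in WT and 97.6, 71.2 and 71.2 FPKM in KO libraries (log2 change 1.82 ± 0.13 SE, adjusted p = 0.000204). Myb, which sustains precursor and stem-like T cells, rose from 7.08, 6.83 and 7.61 to 28.2, 34.6 and 23.8 FPKM (1.86 ± 0.14 log2). Ikzf1 and Bcl11b, factors of T cell identity, were not called (0.062 ± 0.11 and 0.12 ± 0.073 log2). The falls numbered 2 without any 1 of 5 libraries (all but KO replicate 2), without scaling and with a replicate block, and 1 with all 12 libraries.

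Cytotoxic genes divided sharply. Of 13 tested members 6 rose and 4 fell. Of these, 2 passed the filter through KO libraries alone and 1 through WT libraries alone, which leaves 4 rises and 3 falls among 10. Gzmb, Nkg7, Eomes and Klrg1 rose, while the perforin gene Prf1 stood at 10.9, 10.3 and 10.6 FPKM in WT and 1.04, 1.43 and 0.771 FPKM in KO libraries (log2 change -2.49 ± 0.13 SE, adjusted p = 5.22e-05) and the adhesion receptor Crtam at 4.41, 3.82 and 4.09 FPKM in WT and 0.27, 0.495 and 0.465 FPKM in KO libraries (-1.86 ± 0.11 log2), both chosen after their values were seen, beside the falls of Ctsw and Klrd1. Cd8b1, the beta chain of CD8, stood at 13.1, 9.66 and 8.88 FPKM in WT and 90.4, 95 and 85.2 FPKM in KO libraries (log2 change 3.0 ± 0.14 SE, adjusted p = 4.06e-05). Cd8a, its required partner at the surface, was listed at 0.0395 to 0.275 FPKM in the 6 libraries, below the filter. In bulk libraries fewer cells of a type and less RNA per cell cannot be told apart. Of 7 NK and innate T cell markers 2 rose and 3 fell, 1 of the falls being of a member that passed the filter through WT libraries alone. The rise of Tyrobp was lost without any 1 of 5 libraries (all but WT replicate 3). Klrb1c (NK1.1) was at 0.766, 1.16 and 1.34 FPKM in WT and 0.625, 1.41 and 0.765 FPKM in KO libraries, not called.

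**Figure D4:**
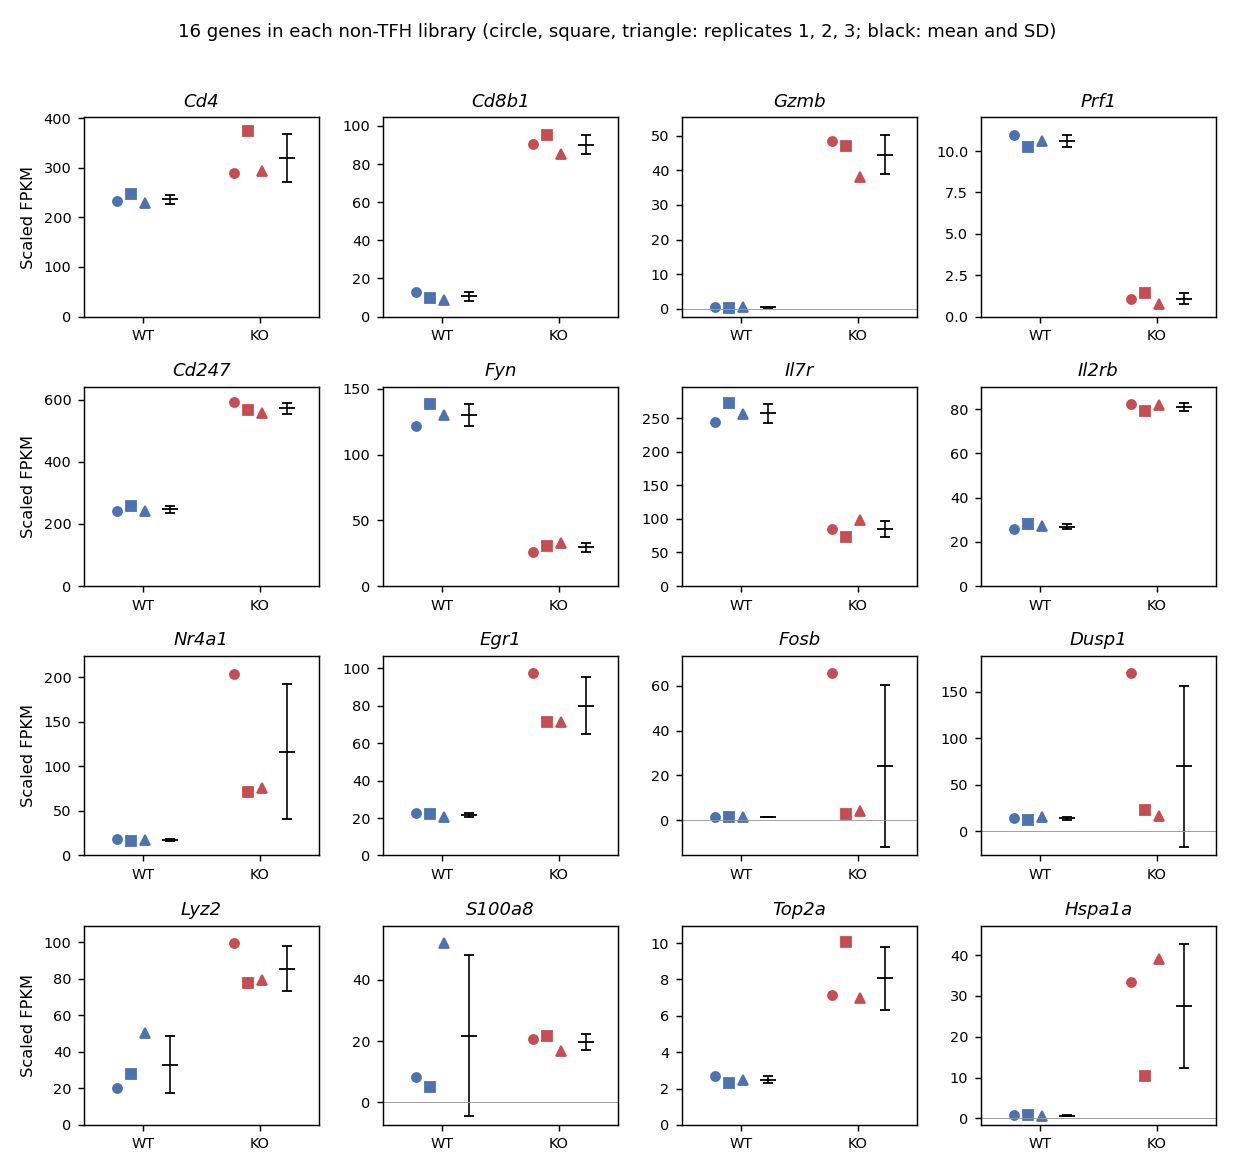
Scaled FPKM of 16 genes in each WT (blue) and KO (red) non-TFH library, with the replicate given by the symbol's shape and the group mean with its SD in black at the side. The groups stand apart for Cd8b1, Gzmb, Prf1, Cd247, Fyn, Il7r and Il2rb, KO replicate 1 is the high library for Fosb, Dusp1 and Nr4a1, and WT replicate 3 is the high library for S100a8.

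Immediate early genes, which respond within minutes to receptor signals, rose in 11 of 25 tested members and fell in 1. Of the rises 2 passed the filter through KO libraries alone, which leaves 9 rises and 1 fall among 23. The 1 fall, of Dusp2, from 81.7, 66.4 and 77.6 to 58.4, 32.1 and 36 FPKM, was chosen after its values were seen, was lost without any 1 library other than KO replicate 1, and the falls numbered 3 without KO replicate 1. Ier3, a survival factor, rose from 0.329, 0.266 and 0.0724 to 6.17, 6.28 and 5.07 FPKM (log2 change 2.48 ± 0.13 SE, adjusted p = 5.46e-05), Dusp5, a phosphatase of ERK, rose from 9.44, 11.4 and 9.65 to 31.9, 25.1 and 25.8 FPKM (1.36 ± 0.12 log2), and Cd69, an early activation receptor, rose from 39.98, 45.9 and 42.6 to 207, 89.1 and 109.8 FPKM (1.54 ± 0.30 log2). KO replicate 1 was the highest library for each of the 6 uncalled members with a log2 change above 1. Fosb stood at 1.36, 1.22 and 1.29 FPKM in WT and 65.8, 2.58 and 4.16 FPKM in KO libraries (adjusted p = 0.188), Dusp1 at 14.3, 11.7 and 14.8 FPKM in WT and 169.7, 23.2 and 16.5 FPKM in KO libraries (adjusted p = 0.24), and Tnfaip3 at 18.3, 18.3 and 18.1 FPKM in WT and 132, 28.8 and 28.8 FPKM in KO libraries (adjusted p = 0.149), these 3 chosen after their values were seen. Fos stood at 134, 67.9 and 112 FPKM in WT and 692, 206 and 117 FPKM in KO libraries and Junb at 140.4, 107 and 157 FPKM in WT and 659.6, 257 and 168 FPKM in KO libraries, with KO replicate 3 inside the WT range for Fos and just above it for Junb. The summed level of the list was 872 to 1026 FPKM in WT and 1206 to 3449 FPKM in KO libraries, and its part in the rises of Nr4a1, Egr1 and Cd69 was not tested. Without KO replicate 1 these 3 genes kept their calls.

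Heat shock genes rose in 5 of 13 tested members (3 with a replicate block), against 19.3% of all features. Of the rises 1, that of Hspa1a, passed the filter through KO libraries alone, which leaves 4 rises among 12. Hspa1a, an inducible HSP70, stood at 0.835, 0.731 and 0.524 FPKM in WT and 33.4, 10.3 and 39 FPKM in KO libraries (log2 change 3.88 ± 0.49 SE, adjusted p = 0.00204), high in KO replicates 1 and 3, and its near-identical copy Hspa1b at 2.1, 1.38 and 1.08 FPKM in WT and 17.6 and 64.3 (no value in replicate 1) FPKM in KO libraries, so that reads of the copies may be shared. The abundant Hspa8, a constitutive HSP70, was not called (0.37 ± 0.18 log2).

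Of 25 tested cell cycle genes 17 rose and 1 fell. Of these, 5 passed the filter through KO libraries alone, and all 5 were called higher, which leaves 12 rises and 1 fall among 20. Top2a, the topoisomerase of dividing cells, stood at 2.67, 2.3 and 2.48 FPKM in WT and 7.12, 10.1 and 7.01 FPKM in KO libraries (log2 change 1.36 ± 0.14 SE, adjusted p = 0.000874), Birc5, of the mitotic spindle, at 1.04, 0.964 and 0.835 FPKM in WT and 4.19, 4.7 and 3.46 FPKM in KO libraries (1.39 ± 0.12 log2), and Mki67, the proliferation antigen, at 0.911, 0.818 and 1.26 FPKM in WT and 3.67, 5.49 and 3.21 FPKM in KO libraries (1.34 ± 0.19 log2). Tk1, a thymidine kinase of S phase, was listed at 0 in each WT library and at 5.38, 5.67 and 2.09 FPKM in KO libraries. The replication licensing genes Mcm2 and Mcm3, at higher levels, were not called. The 1 fall, of Mcm4 (-0.23 ± 0.062 log2), named after its value was seen, was lost without any 1 of 5 libraries (all but KO replicate 3), without scaling, with a replicate block and with all 12 libraries.

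Glycolysis genes went the other way, with 7 of 16 tested members lower and 2 higher. Pdk1, a kinase that limits entry of pyruvate into mitochondria, stood at 92.2, 93.3 and 89.1 FPKM in WT and 21.6, 20.2 and 24.2 FPKM in KO libraries (log2 change -2.01 ± 0.077 SE, adjusted p = 2.33e-05). Slc2a3, the glucose transporter GLUT3, fell from 10.1, 10.6 and 11 to 2.14, 2.6 and 2.09 FPKM (-1.82 ± 0.089 log2), and the enolase feature Eno1 with Eno1b fell from 292, 309 and 286 to 133, 145 and 128 FPKM (-1.12 ± 0.068 log2). Aldoa, aldolase, fell from 148, 156 and 145 to 88.7, 92.7 and 93.1 FPKM (-0.70 ± 0.055 log2), whereas Tpi1, triosephosphate isomerase, rose from 18.2, 16.2 and 18.8 to 32.5, 34.2 and 27.6 FPKM (0.79 ± 0.10 log2). Gapdh rose by 0.38 ± 0.085 log2, a call lost with quantile normalization and without WT replicate 1 or WT replicate 3, and Hk1 was not called.

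Of 25 tested interferon response features 5 rose and 2 fell, shares not far from or below the 19.3% and 17.1% of all features, and 3 rose without WT replicate 3, KO replicate 1 or KO replicate 3 and with a replicate block, and 8 without scaling. Mx1 rose from 10.6, 8.58 and 5.33 to 38.6, 24.4 and 29.98 FPKM (1.82 ± 0.26 log2), and Rsad2 rose from 6.28, 5.68 and 3.32 to 15.6, 17.6 and 16.7 FPKM (1.57 ± 0.20 log2), both antiviral effectors. Oas2, a sensor of viral RNA, fell from 42.7, 39.9 and 25.7 to 15.2, 9.08 and 13.6 FPKM (-1.44 ± 0.25 log2). In WT replicate 3 the level of each of these 3 was the lowest of the WT libraries.

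Several genes of MHC class II rose while H2-Ob fell. Of 12 tested members of the class II and antigen handling list 6 rose and 3 fell, against 19.3% and 17.1% of all features. Of the falls 1, that of H2-Ob, passed the filter through WT libraries alone, which leaves 6 rises and 2 falls among 11. H2-Oa, in the same list, moved in the direction of H2-Ob but was not called. Its log2 change ran from -1.21 to -0.60 over the settings, with a call in 4 of 14 alternatives. H2-DMa, of the peptide exchange factor that H2-O inhibits, stood at 10.9, 9.91 and 10.6 FPKM in WT and 83.6, 83.3 and 74.8 FPKM in KO libraries (log2 change 2.83 ± 0.07 SE, adjusted p = 5.47e-06), and its partner feature H2-DMb1 with H2-DMb2 at 1.37, 0.837 and 1.76 FPKM in WT and 8.99, 9.24 and 10.3 FPKM in KO libraries (2.20 ± 0.16 log2). Cd74, the invariant chain, measured jointly with an overlapping microRNA, rose from 6.23, 8.84 and 11.9 to 17.8, 26.1 and 21.1 FPKM (1.20 ± 0.24 log2), and H2-Aa rose from 1.62, 2.39 and 4.75 to 12.1, 7.86 and 7.14 FPKM (1.41 ± 0.33 log2), a call lost without KO replicate 1, WT replicate 2 and with a replicate block. H2-Eb1 was not called. Of 9 class I features 2 rose (1 without WT replicate 2) and 2 fell (1 to 4 fell when 1 library was left out, 4 without KO replicate 1). B2m, the light chain of class I, stood at 2777, 3493 and 2898 FPKM in WT and 3163, 1784 and 2063 FPKM in KO libraries and was not called, and Nlrc5, the class I transactivator, fell from 82.4, 80.5 and 75.1 to 57.7, 50.2 and 60.5 FPKM (-0.49 ± 0.085 log2), a call lost with all 12 libraries.

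Markers of other cells were measured beside these groups. Of 18 tested macrophage and monocyte markers 13 rose, against 19.3% of all features. Of the rises 2 passed the filter through KO libraries alone, which leaves 11 rises among 16. The rises numbered 6 without WT replicate 1 or KO replicate 1 and 5 without WT replicate 2 or KO replicate 2. They numbered 4 with a replicate block and 7 with all 12 libraries. The summed level of the 18 markers was 581 to 652 FPKM in WT and 714 to 907 FPKM in KO libraries, most of it from joint features that contain Cd68 or Ly6c2. Lyz2, lysozyme, stood at 20.4, 27.7 and 50.4 FPKM in WT and 99.8, 77.5 and 79.1 FPKM in KO libraries (1.44 ± 0.32 log2), and Csf1r, the receptor of macrophage growth factor, at 1.53, 1.78 and 3.4 FPKM in WT and 6.18, 5.3 and 4.38 FPKM in KO libraries, both lost without KO replicate 1 or WT replicate 2. Itgam, the integrin CD11b, stood at 2.65, 1.93 and 2.22 FPKM in WT and 6.2, 6.53 and 5.67 FPKM in KO libraries (log2 change 1.13 ± 0.11 SE, adjusted p = 0.000605) and kept its call. Of 6 neutrophil markers 2 rose, both of them members that passed the filter through KO libraries alone. Without WT replicate 3 there were 5 rises, and in that library S100a8 and S100a9 stood at 52.1 and 53.4 FPKM against 8.39 and 4.66 FPKM in WT replicate 1. The part of these cells in the rises of MHC class II, Spi1, Itgam and Lgals3 was not tested.

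Most B cell and dendritic cell markers were below the filter. Of 16 B cell markers 13 were below it, with Ms4a1 at 0 to 0.252 FPKM, while Cd37, which T cells also express, stood at 127, 121 and 124 FPKM in WT and 132, 103 and 131 FPKM in KO libraries and was not called. The 1 B cell feature that fell joins Cd79a with Arhgef1, so it cannot be assigned to either gene. Of 10 dendritic cell markers 8 were below the filter, Itgax standing at 0.174, 0.312 and 0.505 FPKM in WT and 2.17, 1.27 and 0.815 FPKM in KO libraries, and Irf8, named after its values were seen, rose from 2.44, 2.19 and 2.99 to 4.77, 4.8 and 4.69 FPKM (0.71 ± 0.10 log2). Of 5 tested plasma cell markers 4 rose and 1 fell, the fall being that of Irf4 given above. Of the rises 1 passed the filter through KO libraries alone. Jchain, the joining chain of secreted antibodies, stood at 0.947, 0.616 and 1.78 FPKM in WT and 9.81, 19.7 and 14.4 FPKM in KO libraries (log2 change 2.88 ± 0.29 SE, adjusted p = 0.000799), and Xbp1, a factor of secretory cells, at 15.2, 15.2 and 14.8 FPKM in WT and 28.3, 30.7 and 23.6 FPKM in KO libraries (0.82 ± 0.10 log2). The joint hemoglobin feature Hba-a1 with Hba-a2 stood at 3.1, 0.85 and 4.97 FPKM in WT and 4.38, 27.6 and 3.3 FPKM in KO libraries, highest in KO replicate 2, and was not called.

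Within 2 Mb of Ets1 on chromosome 9, 4 of 6 tested features were called and 0 by at least 2-fold, and at 2 to 5 Mb 6 of 18 were called, 1 of them by at least 2-fold. At 5 to 10 Mb 46.7% of 15 features were called, and 4 of these (26.7%) changed at least 2-fold, against 9.09% of all features. Over the whole of chromosome 9, 41.7% of 547 features were called, within the range of 30.1% (X) to 42.6% (15) over chromosomes with at least 200 tested features. The 10 called features within 5 Mb with the largest changes ran from -1.14 to 0.64 log2. Siae, a sialic acid esterase, rose from 3.42, 3.97 and 4.12 to 6.91, 5.78 and 6.99 FPKM (0.64 ± 0.10 log2), and Aplp2 rose from 17.6, 18.3 and 16.8 to 23.8, 21.8 and 22.8 FPKM (0.36 ± 0.063 log2), while Nfrkb fell from 25.1, 27.1 and 26.8 to 20.4, 20.1 and 21.7 FPKM (-0.33 ± 0.061 log2). The falls of 4930581F22Rik (-1.14 ± 0.30), St3gal4 (-0.46 ± 0.11) and Cdon (-0.27 ± 0.063) and the rises of Gm27162 (0.53 ± 0.15), Tbrg1 (0.48 ± 0.11) and Snx19 (0.27 ± 0.078) were each lost without at least 3 of the 6 libraries in turn. Both WT and KO mice carry the floxed allele, and whether they were littermates is not given in the sources used here.

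The effect of the genotype was then set against that in TFH cells, in a fit to all 12 libraries with values scaled across them. Of 11012 features, 1903 (17.3%) differed between the cell types in their KO effect, 1151 (10.5%) with a more positive and 752 (6.83%) with a more negative effect in non-TFH cells. Fyn moved in opposite directions. It stood at 136, 156 and 146 FPKM in WT and 28.9, 34.2 and 36.8 FPKM in KO non-TFH libraries and at 61, 66.8 and 50.9 FPKM in WT and 109, 110.0 and 107 FPKM in KO TFH libraries (log2 change -2.10 ± 0.12 in non-TFH and 0.87 ± 0.12 in TFH cells, difference -2.97 ± 0.16 SE, adjusted p = 5.48e-07). Tigit was at 0.692, 0.438 and 0.379 FPKM in WT and 24.1, 27.3 and 31 FPKM in KO non-TFH libraries, and already at 79.2, 74.5 and 89.9 FPKM in WT and 79.8, 98.5 and 95.4 FPKM in KO TFH libraries (difference 4.08 ± 0.19 SE, adjusted p = 1.45e-07). Tns4 rose in both cell types but far less in TFH cells, at 0.023, 0.057 and 0.0633 FPKM in WT and 2.71, 3.33 and 2.5 FPKM in KO TFH libraries (difference 4.85 ± 0.20 SE, adjusted p = 6.72e-08).

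H2-Ob fell more in non-TFH cells (-4.59 ± 0.20 in non-TFH and -1.63 ± 0.20 in TFH cells, difference -2.96 ± 0.28 SE, adjusted p = 3.6e-05), and Itgae rose more (difference 3.44 ± 0.38 SE, adjusted p = 0.000101), as did Lgals3 (difference 4.77 ± 0.34 SE, adjusted p = 4.29e-06). Foxp3, again jointly with Ppp1r3fos, stood at 14.3, 14.6 and 11.8 FPKM in WT and 12.4, 14.1 and 12.6 FPKM in KO non-TFH libraries and at 41.1, 59.7 and 69.5 FPKM in WT and 7.92, 10.7 and 7.22 FPKM in KO TFH libraries (difference 2.52 ± 0.27 SE, adjusted p = 9.07e-05). Ifng, at 0.351 to 2.27 FPKM in the non-TFH libraries, changed by 0.29 ± 0.29 in non-TFH and -2.14 ± 0.29 in TFH cells (difference 2.43 ± 0.42 SE, adjusted p = 0.00196). Il4 changed by 1.38 ± 0.38 in non-TFH and 3.64 ± 0.38 in TFH cells (difference -2.26 ± 0.54 SE, adjusted p = 0.0142), from very different levels, at 36.1, 48 and 15.1 FPKM in WT and 445, 263 and 477 FPKM in KO TFH libraries, and this difference was lost with a pseudocount of 0.1. Gmfg changed by -2.43 ± 0.18 in non-TFH and -3.72 ± 0.18 in TFH cells (difference 1.29 ± 0.25 SE, adjusted p = 0.00408), lost with quantile normalization.

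For other genes a difference between the cell types was not detected. Cd247 changed by 1.22 ± 0.068 in non-TFH and 1.26 ± 0.068 in TFH cells (difference -0.042 ± 0.096 SE, adjusted p = 0.821), the narrowest of these estimates. Il7r changed by -1.58 ± 0.23 in non-TFH and -1.59 ± 0.23 in TFH cells (difference 0.0074 ± 0.33 SE, adjusted p = 0.993), and Thy1 by -3.32 ± 0.16 in non-TFH and -3.68 ± 0.16 in TFH cells (difference 0.36 ± 0.22 SE, adjusted p = 0.321). The difference for Thy1 was called with a pseudocount of 0.1 (0.90, adjusted p = 0.0304) and was 0.0020 with quantile normalization. Ets1 itself stood at 171, 204 and 215 FPKM in WT and 224, 271 and 266 FPKM in KO TFH libraries and changed by -0.027 ± 0.098 in non-TFH and 0.37 ± 0.098 in TFH cells (difference -0.39 ± 0.14 SE, adjusted p = 0.0761), a difference that was called with array weights (adjusted p = 0.0495).

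**Figure D5:**
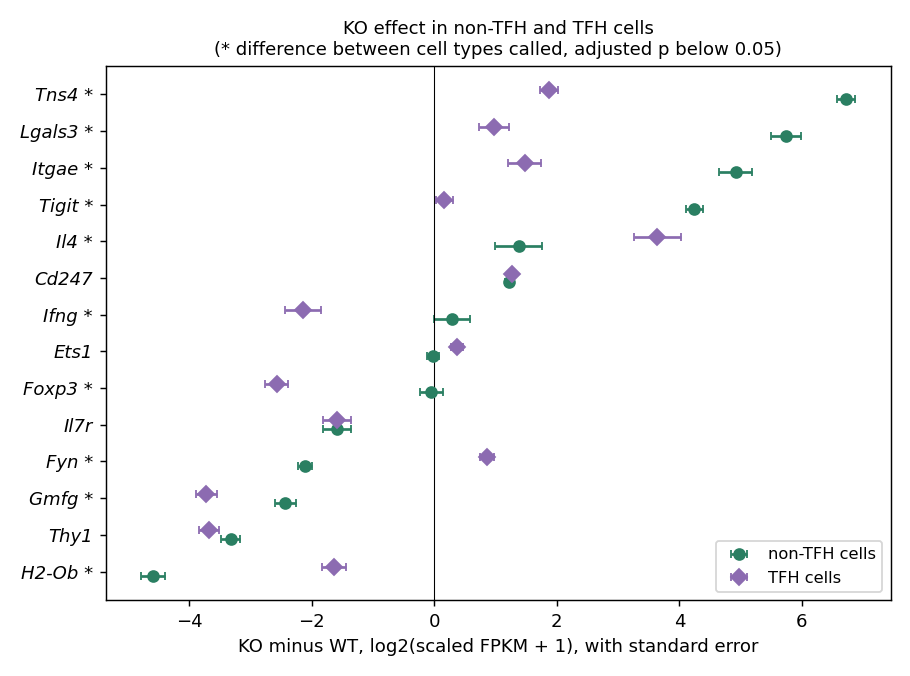
Log2 change of KO against WT for 14 genes in non-TFH cells (green circles) and TFH cells (purple diamonds), with standard errors, from the fit to all 12 libraries. Asterisks mark the 10 genes whose change differed between the cell types, and the points of Fyn lie on opposite sides of 0.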

How the data were processed

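The authors deposited 1 Cufflinks gene tracking table per library with FPKM per gene. Per the submitters' processing notes, the tools were Cufflinks and Cuffdiff, TopHat and TopHat2, Bowtie and Bowtie2, cutadapt and FastQC, with build mm10, and per the labels' protocols libraries were made with a stranded mRNA kit. No version of these tools is given in the sources used here. The tables hold no counts. Depth was only estimated, from the FPKM values of unnamed loci over 1500 bp and their deposited confidence bounds, and no interval was drawn from it.

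Unnamed loci and failed entries were skipped. Symbols that shared an entry were joined (677 joint features, 510 of them tested), 178 symbols could not be separated, 24 date-like symbols were removed, and missing values stayed missing (793 tested features). FPKM was scaled by the median ratio over 7993 features at 1 FPKM or more in all 6 libraries (factors 0.958 to 1.038). limma 3.58.1 (R 4.3.3), with trend and robust moderation, was fitted to log2(scaled FPKM + 1), which understates changes of low genes, with Benjamini-Hochberg adjustment over all features. Levels are scaled FPKM, and ± is SE for changes. On simulated data for the 6 libraries (8845 genes), 78% of 2-fold and 97% of 4-fold changes were recovered, and 5.4% of calls were false. For the difference between cell types (9542 genes) these were 54%, 93% and 4.5%. Each simulation changed 200 genes with a mean level above 5 FPKM and drew noise independently for each gene and library. The shares therefore need not hold for genes near 1 FPKM or for the 36.4% of features called here. Python 3.11.15 with numpy 2.4.6, pandas 2.3.3 and matplotlib 3.10.9 handled tables and plots.

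Members and gene lists were chosen with earlier results of these data known. Named genes were Ets1, the 12 largest rises and falls (called, all values present, no overlap, no group listed at 0 throughout, a group mean of at least 10 FPKM, a symbol of their own that is no predicted, Rik or microRNA gene), the 4 highest listed at 0 in a group in each direction, in each list up to 6 called members with the largest change and up to 4 others with the highest level, the 10 largest called changes within 5 Mb of Ets1, markers of other cell types, and 14 genes for the comparison with TFH cells. Others are marked as chosen after their values were seen. Gene positions and promoters are from RefSeq (GRCm38.p6), to which 9789 of 9825 tested features were matched by symbol. Alternatives were a pseudocount of 0.1, no filter or one at 5 FPKM, no scaling, quantile normalization, no trend and no robust moderation, array weights, a replicate block, leaving out each library, and all 12 libraries.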

Additional observations from a re-analysis of the deposited data

Results flagged for a closer look

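For 10 of the 14 genes compared between cell types, the KO effect (log2, KO minus WT) differed between non-TFH and TFH cells by the test of the difference in the 12-library limma fit. The effect in non-TFH cells minus that in TFH cells was 4.85 for Tns4, 4.77 for Lgals3, 4.08 for Tigit and 3.44 for Itgae. It was 2.52 for Foxp3 with Ppp1r3fos, 2.43 for Ifng and 1.29 for Gmfg. It was -2.97 for Fyn, -2.96 for H2-Ob and -2.26 for Il4. Over all features, 1903 of 11012 (17.3%) differed in this way. The 14 genes were chosen with earlier results of these data known, so 10 of 14 is not a share to set against 17.3%. Of the 10 genes, Il4 lost its call with a pseudocount of 0.1 and Gmfg with quantile normalization.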

How the results depend on the processing

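The count of called features was 3577, with 2870 to 3049 when 1 library was left out (1508 to 1629 higher and 1350 to 1435 lower), and 2420 features were called in the fit to all 6 libraries and in each of these 6. It was 2235 when all 12 libraries were fitted, with 1296 higher and 939 lower, of which 2083 were also called from the 6 libraries. The other alternatives gave 2775 to 4216 calls, and the share of calls that were higher was 52.9%, 64.2% without scaling and 48.2% with quantile normalization. Deviations of same-numbered WT and KO non-TFH libraries from their group means correlated at -0.071, 0.111 and 0.024, so that not every library correlated best with its own number. These values cannot decide whether replicate numbers pair samples. The labels do not say whether TFH and non-TFH libraries of the same number and genotype share a mouse. This was not tested, and the fit to all 12 libraries treats them as independent. A replicate block, which groups libraries of the same number across genotypes, gave 2775 calls, 1481 higher and 1294 lower. For the difference between cell types 1903 features were called, 1705 with a replicate block, 1480 to 1552 with 1 non-TFH library left out and 1494 to 2034 in the others. Of 189 called features among 291 tested named features, 150 kept their call in each alternative that could be fitted and 39 lost it in at least 1. The joint feature H2-K1 with H2-K2 changed sign with quantile normalization (0.094), and the joint feature of Lta and Mir6974, not called with 6 libraries, changed by -0.79 to 4.60 log2 when 1 library was left out. The lowest of these was without KO replicate 1, in which the feature was listed at 15820 FPKM. The log2 change of Ets1 was 0.050 without scaling (exact permutation p = 0.4). Depth limits genes near 1 FPKM most, and 4216 of 13416 features were called without the filter. A filter at 5 FPKM, which leaves out low genes by its construction, lowered the rises to 5 in the cell cycle list, 7 each in the Treg and homing lists, 5 in the type 2 and 3 in the type 17 list. The causes of the other changes were not tested.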

Other observations

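Genes of cytosolic ribosomal proteins, chosen after their values were seen, were mostly lower in KO non-TFH cells. Of 61 tested features named Rpl or Rps with a symbol of their own, 39 fell and 2 rose, with a median log2 change of -0.41, against 17.1% of all features that fell. Rps29 stood at 4686, 4792 and 5110 FPKM in WT and 3315, 2995 and 3142 FPKM in KO libraries (log2 change -0.63 ± 0.064 SE, adjusted p = 0.000771), and Rps20 at 2784, 2788 and 2976 FPKM in WT and 2254, 1898 and 1999 FPKM in KO libraries. The 2 that rose, Rps27l and Rpl7l1, encode relatives of ribosomal proteins. The falls numbered 28 to 39 in the other alternatives but 4 with quantile normalization (4 rose), where the median was -0.078. Among the 114 features with a mean of at least 500 FPKM, 60 fell and 6 rose, against 77 and 111 of 448 features between 100 and 500 FPKM. The 39 ribosomal protein features that fell are among these 60, so the counts are not separate observations.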
